A study of Caenorhabditis elegans with 16 samples.

Results

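The small RNAs bound by the Argonaute NRDE-3 in *cde-1* mutants were compared between animals without and with *eri-1*. Both libraries were chosen by their genotype and precipitation labels, and they are 2 of the 16 samples of the series, which follows ribosomal siRNAs (risiRNAs) in *C. elegans*. The *eri-1;cde-1* library (the double mutant) came from animals with the *mg366* allele of *eri-1* and the *tm936* allele of *cde-1*, labelled as L3 larvae and fed HT115 bacteria, and the *cde-1* library came from *tm936* animals with *eri-1* intact, labelled as embryos and fed OP50. Both strains were kept at 20°C, both lack *cde-1*, and both carry GFP::NRDE-3, which was pulled down with anti-FLAG antibody. The strain list gives the *nrde-3* promoter for the transgene of *eri-1* strains, and the promoter in the strains with *eri-1* intact is not given in the sources used here. The stage, the food and the *eri-1* allele go together in this pair, so their parts in any difference cannot be told apart. The same contrast with *cde-1* intact is given beside it, with *eri-1(mg366)* L3 larvae on HT115 and *GFP::NRDE-3* embryos on OP50. The 2 pairs share no library. Each genotype had 1 library, so there is no replicate check and no p-value, and the 95% intervals of ratios cover counting error only. Sequencing reads amplified by PCR without molecular identifiers are not independent molecules.

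NRDE-3 is an Argonaute of somatic cells that carries 22G-RNAs, short antisense RNAs made by RNA-dependent RNA polymerases, from the cytoplasm into the nucleus, where it silences its targets. Much of its usual cargo comes from the endogenous RNAi (ERI) pathway, in which the polymerase RRF-3, Dicer, the exonuclease ERI-1 and the Argonaute ERGO-1 make primary 26G-RNAs that trigger 22G-RNAs on a small set of genes and long noncoding RNAs. CDE-1, also called CID-1, is a poly(U) polymerase that adds uridines to the 3′-ends of RNAs, and risiRNAs are 22G-RNAs antisense to rRNA. The comparison asks what fills NRDE-3 without CDE-1 when ERI siRNAs are absent or present.

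In *eri-1;cde-1* animals, risiRNAs and the antisense reads of many genes at low levels took up the antisense cargo, whereas in *cde-1* animals a small number of loci held most of it. It took 374 genes to reach 50% of the antisense reads outside rRNA in *eri-1;cde-1* animals and 5 genes in *cde-1* animals. Antisense reads numbered 1713182 in *eri-1;cde-1* and 5261225 in *cde-1*, rRNA included. Of these, rRNA made up 39.04% in the double mutant and 1.42% in *cde-1*, and lincRNAs made up 0.724% in the double mutant and 39.3% in *cde-1*. Protein-coding genes held 38.7% of the antisense reads in the double mutant and 48.4% in *cde-1*. With *cde-1* intact, rRNA made up 0.576% of the antisense reads in *eri-1* and 0.0927% in *GFP::NRDE-3*. The large rRNA share was therefore found in the double mutant and in none of the other 3 libraries.

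**Figure D1:**
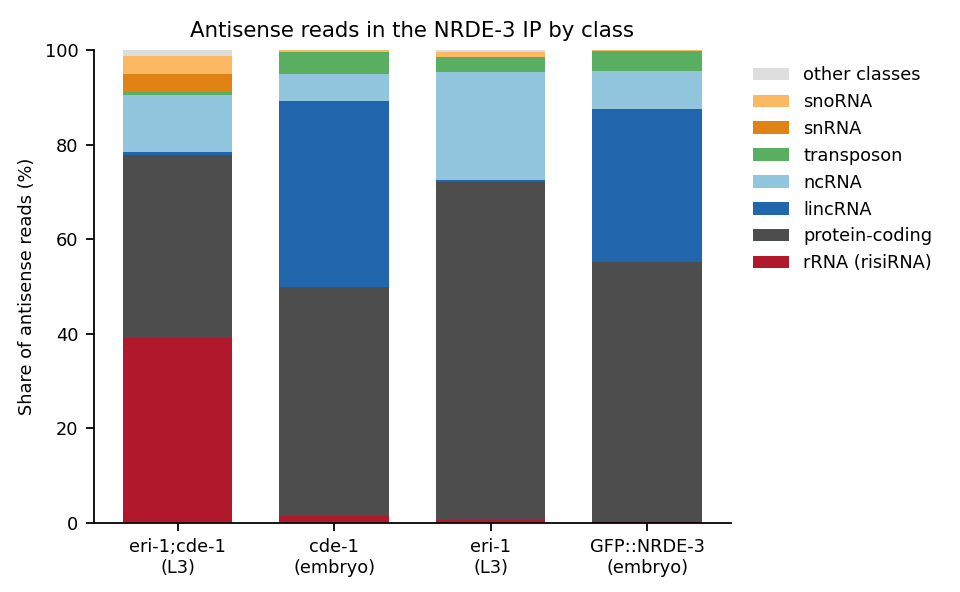
Share of antisense reads (%) in each class for the 4 NRDE-3 libraries, with the stage in the label under each bar. rRNA fills 39.04% of the *eri-1;cde-1* bar and 1.42% of the *cde-1* bar, and lincRNA fills 0.724% and 39.3% of them.

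The libraries also differed in strand and depth. In total, 9919222 reads were counted in *eri-1;cde-1* and 7765240 in *cde-1*, against 8470607 in *eri-1* and 8989571 in *GFP::NRDE-3*. Outside the class rRNA, 21.2% of the reads were antisense in the double mutant and 91.3% in *cde-1*, and 12.6% in *eri-1* and 82.8% in *GFP::NRDE-3*. Most counted reads outside rRNA in the L3 libraries were thus on the sense strand, and part of the difference between the libraries in every level below moves with that share. Levels are given as reads per 1000000 counted reads outside the class rRNA (RPM), and the effect of other denominators is stated for some of the results that it turns. Per sense miRNA read, any ratio of *eri-1;cde-1* over *cde-1* between 1 and 5.46 falls below 1. Per antisense protein-coding read, any such ratio between 0.300 and 1 rises above 1. Mitochondrial transcripts, which serve as a measure of stray strands, had 0.00858% of their reads on the opposite strand in the double mutant and 0.0729% in *cde-1*. *cde-1* itself, listed as *cid-1*, had 124 sense reads in the double mutant and 2 in *cde-1*, and *eri-1* had 42 and 10. Counts over whole genes do not show the deleted part, so these counts do not check the genotypes.

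The stage labels were set against miRNAs with known timing, counted on the sense strand. The mir-35 family, 8 miRNAs abundant in embryos, had 2136 reads in *eri-1;cde-1* and 20429 in *cde-1*, a ratio of 0.120 (95% interval 0.115 to 0.126). mir-35 itself had 1315 and 13878 reads. The 6 larval miRNAs of the lin-4 and let-7 families had 59717 reads in the double mutant and 141 in *cde-1*, a ratio of 488 (414 to 576). let-7, which times the larval to adult switch, had 11219 and 130 reads, and mir-48, listed as lin-58, had 33579 and 6. Of the 6 tested mir-35 members, mir-42 was the one that was higher, at 24.14 RPM in the double mutant and 6.87 RPM in *cde-1*, a ratio of 3.51 (2.45 to 5.05). The larval list was also high in *eri-1* (56797 reads) and low in *GFP::NRDE-3* (140). The defining miRNAs of both stages were thus high in the libraries labelled with those stages. Of all miRNAs with at least 50 sense reads in either library of the *cde-1* pair, 91.8% were at least 2-fold higher in the double mutant and 8.24% at least 2-fold lower, against 6 of 6 tested larval miRNAs higher and 5 of 6 tested mir-35 members lower.

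**Figure D2:**
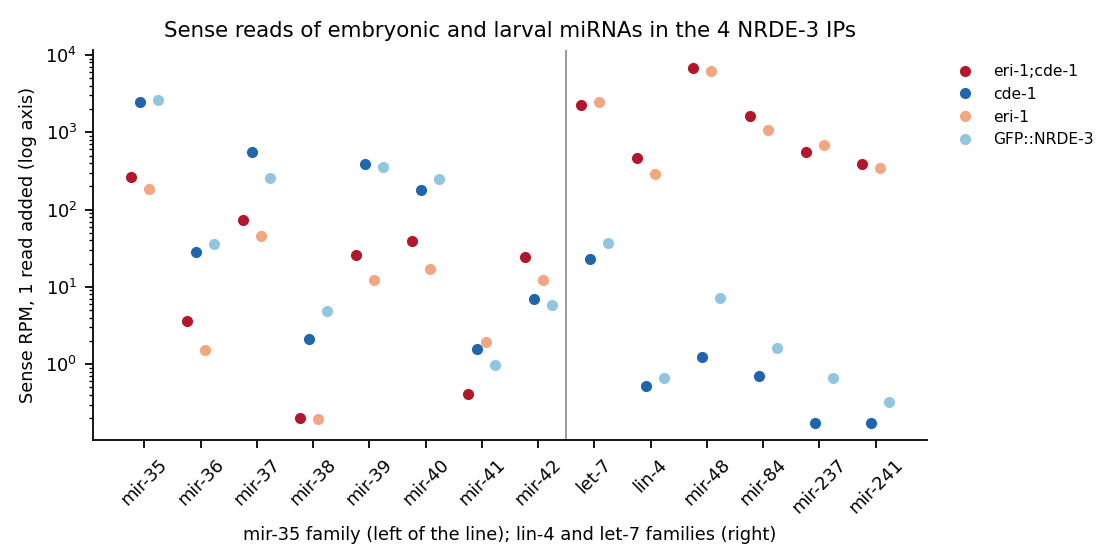
Sense RPM with 1 read added (log axis) of 8 embryonic and 6 larval miRNAs in the 4 NRDE-3 libraries. The larval miRNAs sum to 59717 reads in *eri-1;cde-1* and 141 in *cde-1*, and the mir-35 family to 2136 and 20429.

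risiRNAs stood at 135702 RPM in *eri-1;cde-1* and 13190 RPM in *cde-1* (668890 and 74891 reads), a ratio of 10.3 (10.21 to 10.37). Reads antisense to 26S rRNA, the RNA of the large ribosomal subunit, were 125499 RPM in the double mutant and 11434 RPM in *cde-1*, a ratio of 11.0 (10.89 to 11.065). They made up 92.5% of risiRNAs in the double mutant and 86.7% in *cde-1*. 18S rRNA, the RNA of the small subunit, had 9778 RPM in the double mutant and 1698 RPM in *cde-1*, a ratio of 5.76 (5.63 to 5.89). 5.8S rRNA, cut from the same precursor, had 138 and 18.8 RPM, a ratio of 7.31 (5.96 to 8.96), and 5S rRNA, transcribed from separate genes, had 288 and 38.6 RPM, a ratio of 7.46 (6.47 to 8.61). All 4 rRNAs were higher in the double mutant, and the intervals of the 26S and 18S ratios did not overlap. With *cde-1* intact, risiRNAs stood at 729 RPM in *eri-1* and 768 RPM in *GFP::NRDE-3*, a ratio of 0.949 (0.901 to 0.999), and the ratios of single rRNAs lay between 0.938 and 1.54. For 7 of the 24 rRNA features the 2 strand columns were exchanged, because over 50% of their reads stood in the opposite column in each of the 4 libraries. Without those 7 features the ratio was 10.3, and with all columns as deposited it was 3.91. Sense rRNA reads, which can hold rRNA fragments, made up 43.6% of all counted reads in *eri-1;cde-1* and 25.9% in *cde-1*, and their part in the risiRNA ratio was not tested.

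**Figure D3:**
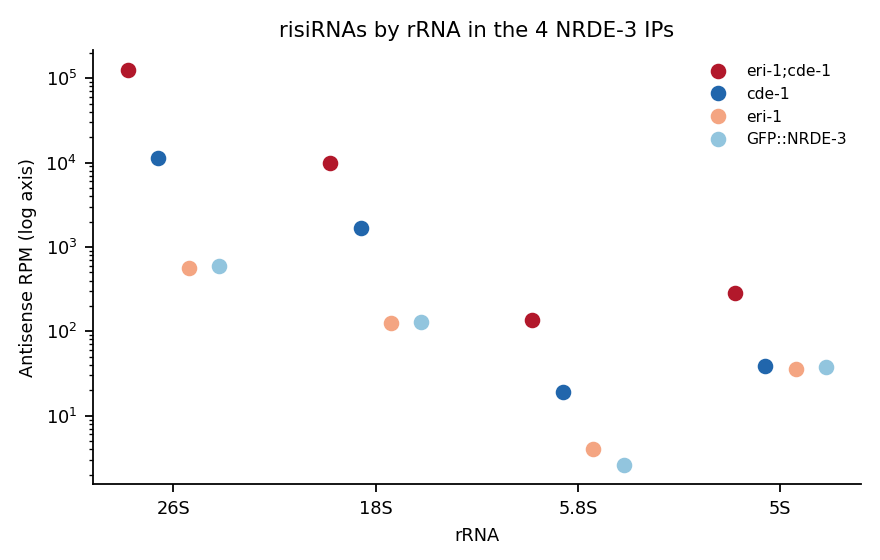
Antisense RPM (log axis) of 26S, 18S, 5.8S and 5S rRNA in the 4 NRDE-3 libraries. *eri-1;cde-1* is the highest for each rRNA, with 125499 RPM for 26S against 11434 RPM in *cde-1*, 563 RPM in *eri-1* and 599 RPM in *GFP::NRDE-3*.

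By class, the summed antisense reads of short structured RNAs were higher in *eri-1;cde-1* and those of lincRNAs, transposons and protein-coding genes were lower. Some of these sums rested on 1 to 3 loci, and are also given without them, an alternative chosen after seeing the data. Antisense splicing leader RNAs, the donors of the 5′-ends of trans-spliced mRNAs, had 2432 RPM in the double mutant and 89.1 RPM in *cde-1*, a ratio of 27.3 (24.97 to 29.83). Antisense snRNAs, counterparts of the spliceosomal RNAs, had 13534 and 775.6 RPM, a ratio of 17.4 (16.9 to 18.0). Antisense tRNAs had 1474 and 95.1 RPM, a ratio of 15.5 (14.2 to 16.9). Each of these classes was less different with *cde-1* intact, where *eri-1* over *GFP::NRDE-3* gave 2.06 for splicing leaders, 2.56 for snRNAs and 2.59 for tRNAs. Antisense snoRNAs, which guide the modification of rRNA, had 13111 RPM in the double mutant and 3517 RPM in *cde-1*, a ratio of 3.73 (3.67 to 3.79), against 0.617 (0.596 to 0.639) with *cde-1* intact. The snoRNA sum rested on F47E1.19, which lies within *linc-22*, and without it the ratio was 8.72 (8.53 to 8.92), and 3.60 (3.37 to 3.85) with *cde-1* intact. By gene, 66 of 71 tested snoRNAs were higher and 2 lower, against 66.3% higher and 11.2% lower over all tested genes outside rRNA. With *cde-1* intact 5 of 8 were higher and 2 lower, against 1142 higher and 482 lower of 2375 tested genes outside rRNA. Per sense miRNA read the snoRNA ratio was 0.683. Antisense miRNAs had 2679 reads in the double mutant and 109 in *cde-1*, a ratio of 28.3 (23.4 to 34.3). In contrast, antisense lincRNA reads had 2518 RPM in the double mutant and 364609 RPM in *cde-1*, 145-fold lower, and 26.8-fold lower without *linc-22*. Of 29 tested lincRNAs, 20 were lower and 5 higher, against 11.2% lower and 66.3% higher over all tested genes outside rRNA. A lincRNA can reach the minimum of reads for a tested gene through *cde-1* alone, so this lincRNA count partly follows from that minimum. Antisense protein-coding reads had 134677 RPM in the double mutant and 448751 RPM in *cde-1*, 3.33-fold lower, and 5.04-fold lower with *cde-1* intact. Antisense transposon reads had 1761 RPM in the double mutant and 42309 RPM in *cde-1*, 24.0-fold lower. By gene, 27 of 49 tested transposon genes were higher and 8 lower, with a median of 1.17 on the log2 scale. Over all tested genes outside rRNA, 66.3% were higher and 11.2% lower, with a median of 1.57, so these counts are not particular to transposons. T16A1.9, Y60A3A.27 and T25G12.8 held 95.3% of the antisense transposon reads of *cde-1*, and without these 3 the ratio was 0.808 (0.785 to 0.831), and 1.92 (1.86 to 1.97) with *cde-1* intact. The antisense ncRNA sum had a ratio of 0.785 (0.781 to 0.789), which was 2.20 (2.19 to 2.22) without T05E11.9.

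**Figure D4:**
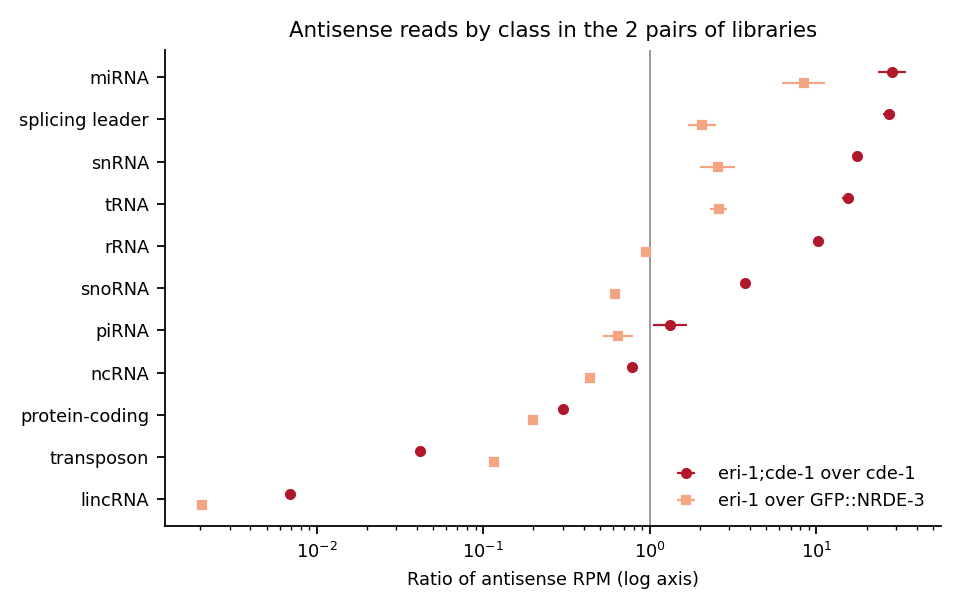
Ratios of antisense RPM by class (log axis) for *eri-1;cde-1* over *cde-1* (circles) and *eri-1* over *GFP::NRDE-3* (squares), with 95% intervals of counting error. rRNA lies at 10.3 in the first pair and at 0.949 in the second, and lincRNA lies at 0.00691 and 0.00206.

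Per read outside rRNA, sense reads were higher in *eri-1;cde-1* in every class. Per sense miRNA read, those of transposons (ratio 3.91), lincRNAs (3.56), rRNA (2.47) and piRNAs (1.65) would be lower. Sense protein-coding reads were 518669 RPM in the double mutant and 59320 RPM in *cde-1*, a ratio of 8.74 (8.71 to 8.77), and 6572 of 6732 genes with at least 50 sense reads in either library were at least 2-fold higher (97.6%), while 76 were at least 2-fold lower (1.13%). Sense mitochondrial reads had a ratio of 29.4 (28.5 to 30.3). Sense snRNA reads had a ratio of 140 (134 to 147), and sense miRNA reads had one of 5.46 (5.42 to 5.49). With *cde-1* intact the same classes were higher in *eri-1*, with ratios of 4.96 for protein-coding genes, 7.63 for mitochondria, 36.3 for snRNAs and 3.57 for miRNAs. Sense piRNA reads, which NRDE-3 does not carry as its usual cargo, had 542 RPM in the double mutant and 329 RPM in *cde-1*, a ratio of 1.65 (1.55 to 1.75).

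Among protein-coding genes, 2892 had at least 50 antisense reads in either library. Of these, 1782 (61.6%) were at least 2-fold higher in *eri-1;cde-1* and 345 (11.9%) at least 2-fold lower, on log2 values with 1 read added. The median difference over all 2892 genes was 1.34 on the log2 scale, so a gene list is read against that value. The split depended on the scale. Higher genes were 83.8% of the called genes per 1000000 reads outside rRNA, 50.6% with TMM scaling (682 higher and 665 lower) and 48.8% with median-of-ratios scaling. They were 92.5% per antisense protein-coding read, 91.8% per antisense read, rRNA included, and 17.9% per sense miRNA read. With *cde-1* intact, 855 of 1935 tested genes (44.2%) were at least 2-fold higher in *eri-1* and 428 (22.1%) at least 2-fold lower.

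The lower genes were few and carried most of the *cde-1* cargo. The 345 lower genes held 2.13% of antisense protein-coding reads in *eri-1;cde-1* and 87.0% in *cde-1*. The 1782 higher genes held 50.5% in the double mutant and 2.94% in *cde-1*. The genes were called on these same counts, so the direction of both differences follows from the call, and the shares only describe their size. In *eri-1;cde-1*, 613 genes were needed to reach 50% of the antisense protein-coding reads, and in *cde-1* 9 genes were enough. The 10 leading genes of each library held 15.8% in the double mutant and 52.5% in *cde-1*. The pair with *cde-1* intact had 641 genes in *eri-1* and 8 in *GFP::NRDE-3* at the 50% mark. The lower genes had a median exon length of 1160.5 bases, against 2285 for the higher genes and 2199 for all tested genes, and 17.2% of them lay on chromosome X, against 8.53% of the higher genes and 9.16% of all tested genes. In the double mutant, 1278 of the 1782 higher genes had more sense than antisense reads, near the share of all tested genes (2014 of 2892). Of the 345 lower genes, 237 were also tested with *cde-1* intact, where 223 were at least 2-fold lower and 0 at least 2-fold higher in *eri-1*. Of the 1782 higher genes, 743 were tested there, with 457 higher and 20 lower. Of the 765 genes with neither call, 448 were tested there, with 93 higher and 83 lower. Over all 1935 protein-coding genes tested with *cde-1* intact, 44.2% were higher and 22.1% lower.

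**Figure D5:**
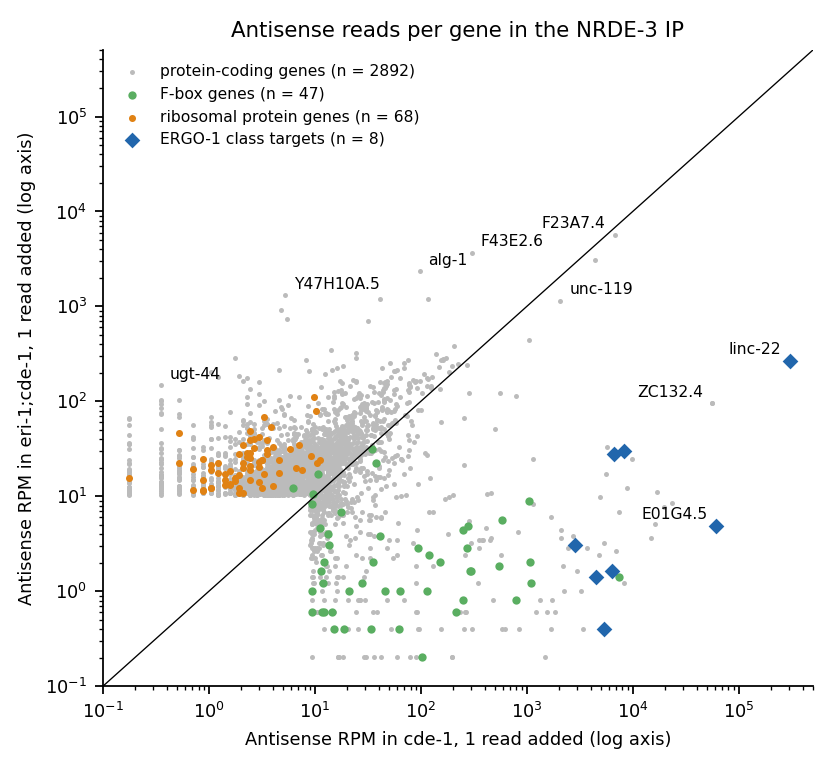
Antisense RPM of each gene with 1 read added (log axes) in *eri-1;cde-1* (vertical) and *cde-1* (horizontal) for the 2892 tested protein-coding genes, with 47 F-box genes, 68 ribosomal protein genes and 8 ERGO-1 class targets marked. The line marks equal levels, and all 8 ERGO-1 class targets, of which *linc-22* is a lincRNA, lie far below it.

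ERGO-1 class targets, the best known NRDE-3 cargo, were almost empty in *eri-1;cde-1*. Of a list of 11 targets, 8 were counted, and E01G4.7, H16D19.4 and T08B6.2 were not analysed here. The 8 summed to 1641 antisense reads in the double mutant and 2267362 in *cde-1*, or 333 and 399324 RPM, 1199.5-fold lower in the double mutant. With *cde-1* intact they summed to 490 reads in *eri-1* and 1018515 in *GFP::NRDE-3*. All 8 were at least 2-fold lower in the double mutant, against 11.2% lower over all tested genes outside rRNA. Their median was -10.89 on the log2 scale and -9.15 to -13.34 over the other scalings. Some of the 8, such as C40A11.10, passed the read minimum only through *cde-1*, so the count of lower targets partly follows from it.

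*linc-22*, a long noncoding RNA (WBcel235, chromosome X, 9069138 to 9073735, plus strand), was the largest single source of antisense reads outside rRNA in *cde-1*. It had 1307 antisense reads in *eri-1;cde-1* and 1727562 in *cde-1*, 1147-fold lower (1087 to 1211), and 377 in *eri-1* and 706077 in *GFP::NRDE-3*. It held 10.5% of antisense lincRNA reads in the double mutant and 83.4% in *cde-1*. The snoRNA gene F47E1.19 lies wholly within its exons on the same strand (157 bases). F47E1.19 had 91 reads in the double mutant and 11442 in *cde-1*, so reads of the 2 genes cannot be told apart there, and 57.3% of antisense snoRNA reads in *cde-1* were listed under F47E1.19.

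E01G4.5 (chromosome II, 13472401 to 13473995, plus strand), a known ERGO-1 target, had 23 reads in *eri-1;cde-1* and 347060 in *cde-1*, 13099-fold lower (8705 to 19713). It had 26 reads in *eri-1* and 218977 in *GFP::NRDE-3*. F39F10.4 had 6 and 25348 reads in the *cde-1* pair, F55C9.3 had 7 and 36149, and C44B11.6 had 14 and 16121. C40A11.10 had 1 and 30548 reads, a 26519-fold difference with an interval of 3735 to 188265 because 1 read stands on 1 side. K02E2.6, with 146 and 46579 reads, and W04B5.1, with 137 and 37995 reads, had the most reads of the protein-coding targets in the double mutant. They were 277-fold (235.4 to 325.8) and 241-fold (204 to 285) lower. W04B5.1 shares 668 exon bases with W04B5.8 on the same strand.

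Genes outside that list also held much of the *cde-1* cargo. ZC132.4, which the annotation does not hold, had 471 antisense reads in *eri-1;cde-1* and 319238 in *cde-1*, 588-fold lower (538 to 644), and 284 in *eri-1* and 116225 in *GFP::NRDE-3*. W04B5.2 (chromosome III, 2424355 to 2425678), close to W04B5.1, had 41 and 134601 reads, 2850-fold lower (2098 to 3871). F52D2.12 had 37 and 111204 reads, and W05H12.2 had 54 and 96516. Of the 511 exon bases of W05H12.2, 417 lie opposite exons of W05H12.4, so its antisense reads and sense reads of W05H12.4 cannot be told apart there. The remaining 5 of the 10 leading genes of *cde-1*, VH15N14R.1, C01A2.1, *lido-8*, Y37E11B.2 and F49B2.3, had 5 to 122 reads in the double mutant and 47117 to 91887 in *cde-1*. All 10 leading protein-coding genes of *cde-1* were lower in the double mutant, by 399.8-fold (*lido-8*) to 13099-fold (E01G4.5). They were chosen by their reads in *cde-1*, which favours this direction. Per kilobase of exon, VH15N14R.1 had 11.5 RPM in the double mutant and 38258 RPM in *cde-1*, and E01G4.5 had 3.42 and 44779 RPM.

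Single loci of other noncoding classes also held many reads in *cde-1*. The ncRNA T05E11.9 (chromosome IV, 11106418 to 11107579) had 117 antisense reads in *eri-1;cde-1* and 194591 in *cde-1*, 1444-fold lower (1204 to 1731), which was 64.4% of antisense ncRNA reads in *cde-1*. The transposon class gene T16A1.9 had 0 reads in the double mutant and 135260 in *cde-1*, at least 39140-fold lower with 3 reads set for the count of 0, and held 56.3% of the antisense transposon reads of *cde-1*. T25G12.8 had 6 and 39518 reads, and Y60A3A.27 had 704 and 54093. Among lincRNAs, *linc-16* had 26 and 133497 reads, of whose exons 496 bases overlap the F-box gene *fbxa-3* on the same strand. *linc-11* had 139 and 88475 reads. *linc-169* went the other way, with 8667 reads in the double mutant and 1914 in *cde-1*, a ratio of 5.22 (4.96 to 5.48), and 460 of its bases are shared with a pseudogene.

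F-box genes, which encode substrate adaptors of ubiquitin ligases and form one of the largest families of *C. elegans*, were mostly lower. Of 322 listed genes, 47 passed the read minimum, and 41 of these were at least 2-fold lower and 1 higher in *eri-1;cde-1*, against 11.9% lower and 61.6% higher over all protein-coding genes. Their median was -5.24 on the log2 scale, against 1.34 for all tested genes, and it lay between -7.69 and -3.50 over the other scalings. The median rested on the read minimum, at -1.55 with at least 10 reads and -0.38 with no filter. The family summed to 2487 antisense reads in the double mutant and 90591 in *cde-1*, 31.6-fold lower, and to 4155 in *eri-1* and 33385 in *GFP::NRDE-3*, 13.7-fold lower. *fbxb-37*, the most read member in *cde-1*, had 6 and 42042 reads, 6083-fold lower (2733 to 13540). *fbxa-52* had 5 and 6190 reads and *fbxa-54* had 9 and 6076. Near-identical members share reads, so single F-box genes are uncertain. MATH and BATH genes, another family of adaptors for protein turnover, had 3 of 14 tested members higher and 6 lower, with a median of -0.45 that was 1.28 per antisense protein-coding read and 0.961 per antisense read, rRNA included.

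Ribosomal protein genes, which encode the protein part of the ribosome, were higher in the double mutant. Of 76 ribosomal protein genes, 68 passed the minimum. All 68 of 68 were at least 2-fold higher in *eri-1;cde-1*, against 61.6% higher and 11.9% lower over all protein-coding genes. Their median was 3.30 on the log2 scale and 0.85 to 5.04 over the other scalings. The list had 1187 antisense reads in *cde-1*, where its most read member, *rpl-1*, had 63. Most of the 68 thus passed the minimum only through the double mutant, and their count largely follows from it. Without a filter the median was 3.19. Their sum was 1777 RPM in the double mutant and 209 RPM in *cde-1*, against 468 RPM in *eri-1* and 297 RPM in *GFP::NRDE-3*. *rps-27* had 546 and 55 reads in the *cde-1* pair, a ratio of 11.4 (8.67 to 15.1), and *rps-23* had 336 and 18, a ratio of 21.5 (13.4 to 34.5). Sense reads of the same list were 140815 in the double mutant and 2410 in *cde-1*, a ratio of 67.3, and their part in the antisense ratio was not tested. Histone genes had 32 higher and 1 lower of 70 tested, against the same 61.6% higher and 11.9% lower. Their median was 0.92, below that of all genes. It was -0.38 with TMM scaling, -0.43 with median-of-ratios scaling and -1.53 per sense miRNA read. *his-45*, the histone gene most read in the double mutant, had 1871 reads there and 1175 in *cde-1*, a ratio of 1.83 (1.71 to 1.97). Many histone genes are near copies of each other and share reads. Nuclear hormone receptor genes had 9 higher and 0 lower of 10 tested, with *nhr-97* at 590 and 16 reads, and cuticle collagen genes had 3 higher of 3 tested, against 61.6% higher over all protein-coding genes. Only 10 of 268 receptor genes and 3 of 156 collagen genes passed the minimum, and without a filter the receptor median was 1.20, as was that of all protein-coding genes. C-type lectin genes had 12 higher and 6 lower of 19 tested, against 61.6% higher and 11.9% lower over all protein-coding genes. *clec-41* had 274 and 5 reads and *clec-166* had 11 and 1489, so members of this family stood on both sides, and the family median of 3.40 was -4.21 with a minimum of 200 reads.

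The genes of the RNAi machinery were described by lists of their own, and their counts stand against 61.6% higher and 11.9% lower over all tested protein-coding genes. Of 8 ERI and Dicer genes, 4 were tested and 3 were higher and 0 lower, with *dcr-1*, which encodes Dicer, at 171 and 71 reads. All 4 RNA-dependent RNA polymerase genes were higher, with *ego-1*, the germline enzyme, at 225 and 35 reads, a ratio of 7.41, and *rrf-1*, its somatic counterpart, at 184 and 61, a ratio of 3.47. Of 10 mutator genes, which act in 22G-RNA amplification, 5 of 5 tested were higher. Of 7 nuclear RNAi genes, 5 of 6 tested were higher, with *nrde-2*, a nuclear RNAi factor recruited by NRDE-3, at 480 and 83 reads, a ratio of 6.66. Of 8 P granule genes, 5 of 7 tested were higher and 1 lower. The lower one was *glh-2*, a germline helicase gene, at 45 and 108 reads, while *glh-4* of the same family was at 814 and 138. The medians of these lists lay between 1.33 and 2.20, against 1.34 for all genes, and each was below 0 per sense miRNA read, from -1.12 to -0.24. The median of the ERI and Dicer genes was also -0.023 with median-of-ratios scaling. A gene can pass the minimum through 1 library alone, so the counts partly follow from it. Among others, *ego-1*, *mut-7* (149 and 49 reads), *mut-14* (139 and 29) and *mut-15* (131 and 23) passed only through the double mutant, and *glh-2* only through *cde-1*.

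*nrde-3*, the gene of the tagged protein, had 5970 antisense reads in *eri-1;cde-1* and 670 in *cde-1*, a ratio of 10.3 (9.48 to 11.12), and 8588 in *eri-1* and 1283 in *GFP::NRDE-3*. Its sense reads were 24337 and 9713 in the *cde-1* pair. All 4 strains carry GFP::NRDE-3 by their labels, and the counts do not separate a transgene from the endogenous gene.

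The leading antisense genes of *eri-1;cde-1* fell into groups that the other libraries separate. F23A7.4 (chromosome X, 16212606 to 16212812) had 27924 reads in *eri-1;cde-1* and 38359 in *cde-1*, against 255 in *eri-1* and 327 in *GFP::NRDE-3*. Its neighbour F23A7.8 (16213373 to 16213576) had 15249 and 24995 reads, against 215 in *eri-1* and 173 in *GFP::NRDE-3*. Both of these short genes were thus high in the *cde-1* mutants with and without *eri-1*, at ratios of 0.839 (0.826 to 0.852) and 0.703 (0.689 to 0.717), and low in both libraries with *cde-1* intact. Per antisense protein-coding read both ratios would be above 1, since that scale adds 1.74 on the log2 scale to every gene.

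A second group was high in *eri-1;cde-1* and not in the other 3 libraries. F43E2.6 (chromosome II, 7366455 to 7368861) had 18106 antisense reads in the double mutant and 1713 in *cde-1*, a ratio of 12.2 (11.59 to 12.79), against 1127 in *eri-1* and 754 in *GFP::NRDE-3*. *alg-1* (chromosome X, 13949110 to 13956261), which encodes an Argonaute of the miRNA pathway, had 11581 and 554 reads, a ratio of 24.1 (22.1 to 26.2), against 498 in *eri-1* and 38 in *GFP::NRDE-3*. A snoRNA gene, K02B9.10, lies within *alg-1* exons on the same strand (96 bases). C33A12.3 (chromosome IV, 9510748 to 9513002) had 4520 and 26 reads, a ratio of 200 (136 to 294), against 42 in *eri-1* and 3 in *GFP::NRDE-3*. The SmY RNA genes *smy-1* and *smy-2* lie within its span on the same strand and share 0 bases with its exons. *ctsa-2* had 3677 and 30 reads, a ratio of 141 (98.6 to 202).

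Another group was high in both *eri-1* libraries. Y47H10A.5 (chromosome I, 12095482 to 12097987) had 6476 antisense reads in *eri-1;cde-1* and 29 in *cde-1*, a ratio of 257 (179 to 370), and 4557 in *eri-1* and 11 in *GFP::NRDE-3*, a ratio of 244. *unc-44*, which encodes an ankyrin of neurons, had 5891 and 232 reads, a ratio of 29.3 (25.7 to 33.4), and 38160 in *eri-1* and 335 in *GFP::NRDE-3*, a ratio of 67.0. In contrast, *unc-119*, a gene of the nervous system, was read in all 4 libraries, at 5683 in the double mutant and 11808 in *cde-1*, a ratio of 0.554 (0.537 to 0.572), and 7958 in *eri-1* and 10747 in *GFP::NRDE-3*. Per antisense protein-coding read its direction would also turn.

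Among protein-coding genes, the largest ratios came from genes nearly without reads in *cde-1*. *ugt-44*, of the UDP-glucuronosyltransferase family, had 727 antisense reads in *eri-1;cde-1* and 1 in *cde-1*, a ratio of 837 (118 to 5953). *pmp-5*, of the peroxisomal ABC transporter family, had 512 and 1 reads, a ratio of 590 (82.9 to 4195). *elo-5*, which encodes a fatty acid elongase, had 326 and 0 reads, at least 125-fold higher, and *cdd-1*, which encodes a cytidine deaminase, had 322 and 0, at least 124-fold higher. With *cde-1* intact these 4 genes had 11 to 93 reads in *eri-1* and 0 in *GFP::NRDE-3*. Their antisense counts in the double mutant stood beside 257, 697, 336 and 16 sense reads.

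Antisense reads of the trans-splicing RNAs were highest in *eri-1;cde-1* among the 4 libraries. SmY RNAs, small nuclear RNAs of nematodes that act in trans-splicing, had 26967 antisense reads in the double mutant and 117 in *cde-1*, a ratio of 266 (221 to 318), against 157 in *eri-1* and 10 in *GFP::NRDE-3*. All 11 tested SmY genes were at least 2-fold higher, against 66.3% higher and 11.2% lower over all tested genes outside rRNA. With 117 reads over the whole group in *cde-1*, most of the 11 passed the minimum only through the double mutant. Their count therefore largely follows from the minimum. *smy-1* (chromosome IV, 9511763 to 9511839) had 10566 and 10 reads, a ratio of 1217 (655 to 2263), against 58 in *eri-1* and 3 in *GFP::NRDE-3*. *smy-2* had 5106 and 31 reads and *smy-3* had 3202 and 5. SL1 genes had 2108 and 133 antisense reads, a ratio of 18.3 (15.3 to 21.8), and SL2 genes had 9880 and 373, a ratio of 30.5 (27.5 to 33.8). Some SL2 genes, such as *sls-2.3*, *sls-2.4* and *sls-2.8*, lie mostly opposite ncRNA exons, and there the reads of both cannot be told apart. The splicing leader genes most read in the double mutant, *sls-2.9*, *sls-2.10* and *sls-2.11*, had 0 exon bases of another gene opposite them. Sense SmY reads were 1910 in the double mutant and 48 in *cde-1*, so antisense reads outnumbered sense reads in both. Of 71 tested snRNA genes, 69 were higher and 0 lower in the double mutant, and of 71 tested snoRNA genes 66 were higher and 2 lower, including F47E1.19. These counts rest on the same minimum, which a gene can pass through the double mutant alone.

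Antisense ncRNA reads fell apart by what lies on the other strand. Of 392 tested ncRNA genes, 275 lie opposite a tRNA, miRNA, snoRNA or snRNA gene, and these held 77.9% of the antisense reads of tested ncRNAs in *eri-1;cde-1* and 3.01% in *cde-1*. Their summed ratio was 19.1, and 273 of the 275 were higher, against 66.3% higher and 11.2% lower over all tested genes outside rRNA. The 275 genes had 148758 reads in the double mutant and 8958 in *cde-1*. Such a gene can pass the read minimum through the double mutant alone, so the count of 273 partly follows from the minimum. T09B4.14, opposite *mir-1*, had 18277 and 769 reads, and K01F9.6, opposite *mir-80*, had 10188 and 63. A read antisense to such an ncRNA has the strand of the small RNA opposite it, so the 2 cannot be told apart in these counts. The other 117 ncRNAs had a summed ratio of 0.168, with 82 higher and 22 lower. F39D8.7, among them, had 3575 reads in the double mutant and 24596 in *cde-1*, against 107 in *eri-1* and 1288 in *GFP::NRDE-3*.

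Tissue marker lists were checked on the antisense strand in the same way, against the same 61.6% higher and 11.9% lower. Of 7 muscle genes 4 were tested, with 2 higher and 0 lower, and of 5 neuron genes 2 were tested, with 1 higher and 0 lower. Of 11 maternal and early embryo genes 3 were tested, with 2 higher and 0 lower, and of 8 intestine genes 1 was tested, with neither call. The medians of the muscle (0.87), intestine (0.88) and neuron (0.40) lists were below 0 with TMM scaling, at -0.43, -0.42 and -0.90, and those of these lists and of the maternal list (1.31) were below 0 with median-of-ratios scaling and per sense miRNA read. None of 7 epidermis genes and none of 31 major sperm protein genes passed the minimum. On the sense strand, the muscle list summed to 38814 reads in *eri-1;cde-1* and 2046 in *cde-1*, a ratio of 21.9. The epidermis list summed to 5628 and 130, a ratio of 49.9, and the maternal list to 965 and 231, a ratio of 4.81. Intestine genes summed to 4083 and 405 sense reads, and neuron genes to 1143 and 291. All sense protein-coding reads had a ratio of 8.74. The muscle, epidermis and intestine lists lay above that ratio, and the maternal and neuron lists below it. Per sense miRNA read, the maternal and neuron ratios would fall below 1. Of the 3 poly(U) polymerase genes, *pup-2* had 58 and 81 antisense reads, *cid-1* had 69 and 24, and *pup-3* had 6 and 9.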

How the data were processed

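Each library was a count table that the authors deposited, in which every transcript has 1 number for sense and 1 for antisense reads, not normalized. The authors removed adaptors and low-quality reads, mapped reads of 18 to 30 nt to WS243 transcripts with Bowtie2 at default parameters, and counted them with Perl scripts. By default Bowtie2 reports 1 place for a read that fits several, so near-identical genes share reads. At most 3 transcripts without a class, up to 0.00152% of reads, were left out. The methods describe embryos for immunoprecipitation and elsewhere synchronized worms, and the stages here are those of the labels. 1 sample title names another *cde-1* allele, and the genotype label was followed. A 26S rRNA tail table with 6 value columns was not used.

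Genes were sums over transcripts. RPM was computed over reads outside rRNA, ratios have 95% log-normal intervals, and a count of 0 was set to 3 reads. A gene entered a comparison with 50 reads or more in one of its 2 libraries, 1 read was added to each, and 2-fold was the call. Genes named were the 10 most read and, among the 626 genes with at least 200 reads, the 10 highest and 10 lowest ratios, up to 3 per direction in other classes, and members of fixed lists, of which the text gives a selection. Members and lists were chosen with earlier results of these data known. Positions came from Ensembl 115 (WBcel235, 44852 of 45510 genes matched). The code was tested on simulated data. Alternatives were other denominators, scalings, read minimums, 10 added reads and single transcripts. Python 3.11.15 and edgeR 4.0.16 under R 4.3.3 (TMM scaling) were used.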

Additional observations from a re-analysis of the deposited data

Results flagged for a closer look

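Per read outside rRNA, some results went opposite ways in the *cde-1* mutant pair and in the pair with *cde-1* intact. None of these differences was tested, since each genotype had 1 library. Antisense rRNA reads had a ratio of 10.3 for *eri-1;cde-1* over *cde-1* and of 0.949 for *eri-1* over *GFP::NRDE-3*. Sense rRNA reads had ratios of 2.47 and 0.326 in the same order of pairs, antisense snoRNA reads 3.73 and 0.617, and antisense piRNA reads 1.33 and 0.645. As shares of antisense reads, rRNA included, these antisense classes were higher in the *eri-1* mutant library of both pairs. With *cde-1* intact, the shares in *eri-1* and *GFP::NRDE-3* were 0.576% and 0.0927% for rRNA, 0.960% and 0.238% for snoRNAs, and 0.0278% and 0.00659% for piRNAs. The snoRNA sums did not go opposite ways without F47E1.19, which lies within *linc-22*, at ratios of 8.72 and 3.60. By gene, 5 of 8 tested snoRNAs were higher and 2 lower in *eri-1* than in *GFP::NRDE-3*, against 1142 higher and 482 lower of 2375 tested genes outside rRNA. Antisense reads of *bli-1*, a cuticle collagen gene, had a ratio of 3.65 with 19 and 6 reads in *eri-1;cde-1* and *cde-1*, and one of 0.420 with 15 and 21 reads in *eri-1* and *GFP::NRDE-3*.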

How the results depend on the processing

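No paired analysis was possible because each genotype had 1 library, which also leaves no replicate to leave out. The risiRNA ratio of 10.3 was 9.18 per counted read less sense rRNA, 6.99 per counted read, 34.3 per antisense protein-coding read, 1.88 per sense miRNA read, 27.4 per antisense read, rRNA included (a denominator chosen after seeing the data), and 3.91 with all columns as deposited. The 1782 higher genes became 338 per sense miRNA read, 682 with TMM scaling, 656 with median-of-ratios scaling, 5443 with at least 10 reads, 329 with at least 200 reads and 10343 without a filter. The 345 lower genes became 204 per antisense protein-coding read, 219 per antisense read, rRNA included, 1546 per sense miRNA read, 665 with TMM scaling, 687 with median-of-ratios scaling, 704 with at least 10 reads, 173 with at least 200 reads and 1320 without a filter. Filters change the number of genes compared, and the scalings move every gene by the same amount. The ncRNA ratio of 0.785 turned to 2.62 per antisense protein-coding read and 2.09 per antisense read, rRNA included, and to 2.20 without T05E11.9, and the snoRNA ratio of 3.73 to 0.683 per sense miRNA read. Without their leading loci (chosen after seeing the data) the transposon ratio of 0.0416 was 0.808, the lincRNA ratio of 0.00691 was 0.0373 and the snoRNA ratio was 8.72. The histone median of 0.92 turned to -1.53 per sense miRNA read, -0.38 with TMM scaling and -0.43 with median-of-ratios scaling, and the mutator median of 1.79 to -0.66 per sense miRNA read. The C-type lectin median of 3.40 turned to -4.21 with at least 200 reads. The medians of the ERGO-1 class targets, the F-box genes and the ribosomal protein genes kept their sign under each alternative tried, with the F-box median at -1.55 with at least 10 reads and -0.38 without a filter. Counting error is small for classes and wide for genes with few reads.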
